A study of Mus musculus with 5 samples.

Results

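The 10 genes described here encode parts of the NF-kB pathway, its feedback inhibitors and some of its targets. They are Icam1, Tnfaip2, Nfkbia, Nfkbie, Nfkbiz, Bcl3, Tnfaip3, Birc3, Nfkb2 and Relb. They were chosen by gene symbol, and 12 gene probes of the array carry one of these symbols in the platform annotation, out of 34743 gene probes kept and 18467 genes with a symbol. Birc3 had 3 probes and each of the other 9 genes had 1. Messenger RNA from the back skin of albino hairless mice was hybridised to 5 one-colour CodeLink arrays, 1 array per group. The groups were wild-type (WT) mice left unirradiated, WT mice at 3 h and at 24 h after UVB, and Xpa mutants at 3 h and at 24 h after UVB, each irradiated group with a dose of 1 kJ per square metre. Xpa encodes a DNA damage binding protein of nucleotide excision repair. Unirradiated mutant skin was not analysed here, so a genotype difference after UVB cannot be told apart from one present before it, and the labels give neither the mutant allele, nor the age of the mice, nor whether an array holds 1 mouse or a pool.

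NF-kB is a family of dimeric transcription factors that inhibitor proteins of the IkB family hold in the cytoplasm. Cytokine and danger signals lead to phosphorylation and breakdown of the inhibitor, the dimer enters the nucleus and binds kB sites, and among the genes it activates are those of its own inhibitors, which end the signal. In skin the pathway is known for its part in keratinocyte and vascular inflammation. A slower branch processes the Nfkb2 precursor, whose product pairs with Relb.

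With 1 array per group no replicate error, test or p-value exists, and every difference below compares 2 arrays, with anything particular to an array included. Levels are log2 normalized intensities, a gene counted as compared when the scanner software left its low-signal flag off on at least 1 of the arrays compared ("above background"), and as higher or lower at a difference of 1 on the log2 scale (2-fold). Where 1 of the arrays compared was below background the fold is given only as a bound, "at least N-fold", and such a gene is counted by its measured log2 difference although its bound can be under 2-fold. The share of gene probes above background ran from 23.5% to 25.1% over the arrays. All 8 epidermal keratinocyte markers and all 7 fibroblast markers examined were above background on every array, as skin should have. Xpa itself had log2 levels of 7.49 in unirradiated WT, 7.13 and 7.55 in irradiated WT at 3 h and 24 h, and 6.64 and 6.42 in the mutant at these times, so both mutant arrays were lowest. Its probe was above background only on the WT arrays without UVB and at 24 h, so this check of the labels rests on dim spots. The 10 genes lie on chromosomes 7, 9, 10, 12, 16, 17 and 19, none of them on chromosome 4 with Xpa.

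Promoter sequence from RefSeq (GRCm38.p6) was matched for 8 of the 10 genes by symbol, while Nfkbiz and Relb are named only. The windows run from 250 bases before to 50 after each gene start, and several starts are listed for Nfkb2 and Tnfaip3, which gives 11 windows. They were searched on both strands for a short kB motif, GGANNTTCC (on the other strand GGAANNTCC), and for the longer kB consensus, which can overlap it. The short motif was in 7 of the 11 windows, and in 4.26% of all 32851 promoter windows. The consensus was in 8 of the 11, and in 8.46% of all windows. Counting either motif, 9 of the 11 windows held a match, as did 10.7% of all windows. Of the 8 genes 7 held a match and Birc3 held none, and the share among all genes was not computed. The 11 windows are not independent, because some Nfkb2 windows overlap and a match that they share is counted in each. The 180 bases before the start are shown for 5 genes whose levels are compared below, to set the 3 genes at least 2-fold lower at 24 h than at 3 h in WT (Icam1, Tnfaip2 and Nfkbia) beside Nfkb2, below background on 3 arrays, and Tnfaip3, below background on 4. Capitals mark the motif matches, which are matches of letters and not measured binding sites.
Icam1 (chr9:21015760-21015939, + strand): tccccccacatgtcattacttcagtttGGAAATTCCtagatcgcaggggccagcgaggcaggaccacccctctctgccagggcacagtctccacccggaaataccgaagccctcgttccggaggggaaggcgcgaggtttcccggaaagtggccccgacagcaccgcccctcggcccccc
Tnfaip2 (chr12:111442481-111442660, + strand): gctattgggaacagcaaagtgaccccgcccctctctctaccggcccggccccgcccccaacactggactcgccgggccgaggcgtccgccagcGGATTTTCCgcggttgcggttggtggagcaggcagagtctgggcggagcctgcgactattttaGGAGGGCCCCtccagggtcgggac
Nfkbia (chr12:55492648-55492827, - strand): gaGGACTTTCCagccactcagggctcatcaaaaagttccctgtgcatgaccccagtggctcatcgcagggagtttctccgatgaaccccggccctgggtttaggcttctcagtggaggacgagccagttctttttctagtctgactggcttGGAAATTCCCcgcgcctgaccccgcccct
Nfkb2 (chr19:46304557-46304736, + strand): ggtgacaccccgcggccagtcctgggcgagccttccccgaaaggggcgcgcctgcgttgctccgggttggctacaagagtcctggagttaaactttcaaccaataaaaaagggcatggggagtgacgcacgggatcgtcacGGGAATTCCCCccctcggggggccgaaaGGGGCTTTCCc
Tnfaip3 (chr10:19015411-19015590, - strand): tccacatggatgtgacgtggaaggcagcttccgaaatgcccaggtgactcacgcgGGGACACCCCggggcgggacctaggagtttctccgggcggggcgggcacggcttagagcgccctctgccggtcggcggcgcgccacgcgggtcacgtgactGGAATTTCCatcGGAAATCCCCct

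In the Icam1 window the match GGAAATTCC begins at position -153 from the start, and in the Tnfaip2 window GGATTTTCC begins at -87. Nfkbia has matches beginning at -178 and -29, and the nearer one is the same run of letters, GGAAATTCC, as in Icam1. Tnfaip3 has 3 matches before its first listed start, beginning at -125, -24 and -12. Nfkb2 has 3 consensus matches before its first listed start, the one printed. Those beginning at -39 and -38 overlap in 1 run of capitals and the other begins at -11. The windows of the other listed Nfkb2 starts also hold matches.

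**Figure D1:**
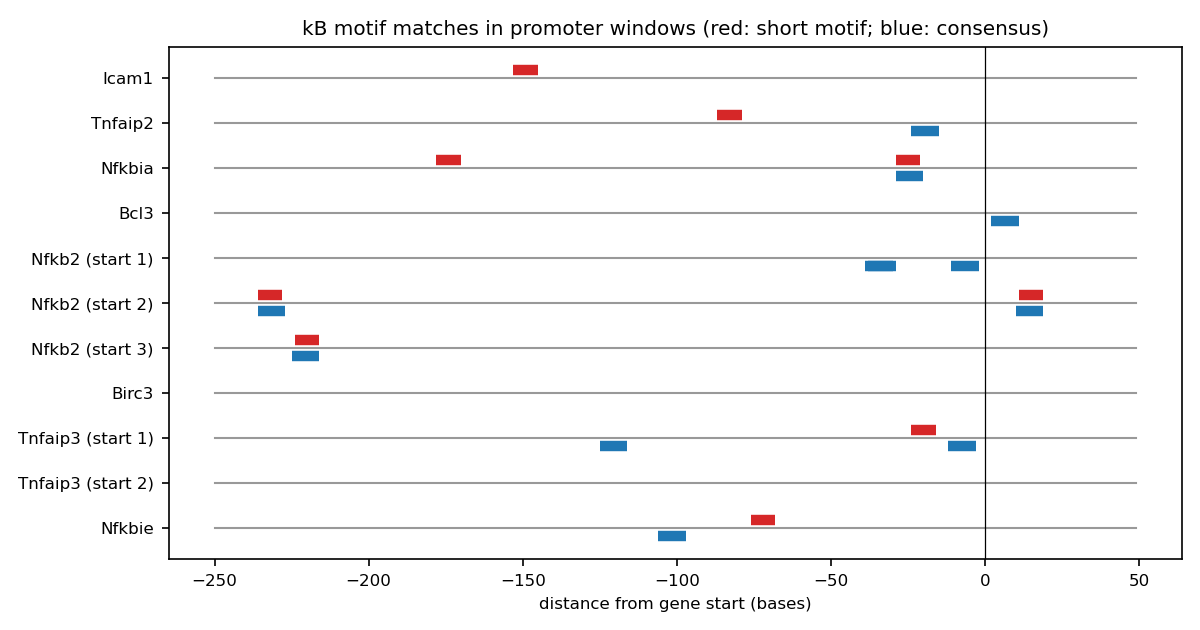
Matches of the short kB motif (red) and the kB consensus (blue) in 11 promoter windows of 8 genes, drawn by distance in bases from the gene start at 0. Of the 11 windows, 9 hold a match, and those of Birc3 and of the second listed start of Tnfaip3 hold none.

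Of the 10 genes, 4 were above background on all 5 arrays (Icam1, Tnfaip2, Nfkbia and Bcl3), 4 on some arrays (Nfkb2, Relb, Birc3 and Tnfaip3), and 2 on none (Nfkbie and Nfkbiz). The account below goes from effector targets to inhibitors, ubiquitin regulators and subunits.

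Icam1 encodes the adhesion molecule that leukocyte integrins bind on endothelium and activated keratinocytes. Its log2 level was 7.68 without UVB, 10.05 in WT and 9.23 in the mutant at 3 h, and 8.56 in WT and 9.32 in the mutant at 24 h. All 4 irradiated arrays were above the unirradiated one, and the WT array at 3 h was highest. In background-subtracted intensity before normalization the 5 arrays, in this order, read 160, 1048, 545, 333 and 560. WT skin at 3 h was 5.17-fold above WT without UVB, with only 12 of 7148 genes compared showing a larger difference, and WT at 24 h was 1.84-fold above it. Between 3 h and 24 h Icam1 was 2.81-fold lower in WT, but in the mutant the arrays at the 2 times differed by 1.07-fold. The spot of the WT array at 3 h carries the scanner flag C, a flag that the file headers do not define. Its local background was 81 intensity units, beside a median of 92 over that array. This flag was on 14.9% to 16.2% of the gene probes of each array.

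Tnfaip2, a gene induced by tumour necrosis factor, had log2 levels of 7.47 without UVB, 8.81 and 7.56 in WT at 3 h and 24 h, and 8.23 and 8.78 in the mutant at 3 h and 24 h. WT at 24 h was back near the unirradiated level, whereas the mutant at 24 h was near the level of WT at 3 h. Tnfaip2 was 2.54-fold higher in WT at 3 h than without UVB, and 2.38-fold lower in WT at 24 h than at 3 h. In the mutant it was 1.46-fold higher at 24 h than at 3 h, where its spot had the flag C.

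Nfkbia encodes IkB-alpha, the main inhibitor that NF-kB itself induces. Its log2 level was 9.57 without UVB, 10.21 and 9.16 in WT at 3 h and 24 h, and 10.01 and 9.62 in the mutant at 3 h and 24 h. Both arrays at 3 h were above the unirradiated one, and the WT array at 24 h was the lowest of the 5. The difference was 1.56-fold at 3 h in WT, with 410 of 7148 genes higher, and from 3 h to 24 h Nfkbia was 2.07-fold lower in WT and 1.31-fold lower in the mutant. None of the 5 Nfkbia spots had the flag C or the low-signal flag.

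Bcl3, an atypical IkB protein that acts in the nucleus with NF-kB dimers, moved little. Its log2 levels were 8.79 without UVB, 8.95 and 8.73 in WT at 3 h and 24 h, and 8.68 and 9.10 in the mutant at 3 h and 24 h, a range of 0.42. The highest and lowest of the 5 values were those of the mutant at 24 h and at 3 h.

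The other inhibitors gave no usable level. Nfkbie, which encodes IkB-epsilon, lay between 6.22 and 6.65 on the log2 scale, with background-subtracted intensities of 23.9 to 49.1, and the negative control spots had 95th percentiles of 51.9 to 53.7. Nfkbiz, whose product is the nuclear protein IkB-zeta, lay between 6.33 and 7.02. Its intensity of 78.4 on the mutant array at 24 h was the highest of its 5 values and still had the low-signal flag. No fold is given for either gene.

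Tnfaip3 encodes A20, an enzyme that edits ubiquitin chains and stops NF-kB signalling. Its log2 levels were 7.16 without UVB, 6.86 and 7.25 in WT at 3 h and 24 h, and 6.81 and 7.14 in the mutant at 3 h and 24 h. Only the unirradiated spot was above background, and the 2 arrays at 3 h were the lowest of the 5. At this signal a small difference was not detectable.

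Birc3 encodes cIAP2, a ubiquitin ligase that acts at tumour necrosis factor receptors and protects cells from death. Its brightest probe had log2 levels of 6.95 without UVB, 7.66 and 7.11 in WT at 3 h and 24 h, and 7.46 and 7.13 in the mutant at 3 h and 24 h. It was above background only on the 2 arrays at 3 h, where WT was at least 1.57-fold above the unirradiated array. The other probes did not show this order. One was below background on every array, between 6.10 and 6.66, and the other was above background only on the mutant array at 24 h, at 7.27. With the mean of all 3 probes in place of the brightest, the mutant difference from 3 h to 24 h turned from -0.32 to 0.17.

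Nfkb2 encodes the precursor p100, whose shortened form p52 pairs with RelB. Its log2 levels were 7.07 without UVB, 7.94 and 7.01 in WT at 3 h and 24 h, and 7.66 and 7.29 in the mutant at 3 h and 24 h. Only the 2 arrays at 3 h were above background, and there WT was at least 1.82-fold above the unirradiated array. Relb had levels of 7.08 without UVB, 7.54 and 6.80 in WT, and 7.22 and 6.58 in the mutant, in the same order of times. It was above background only in WT at 3 h, at least 1.38-fold above the unirradiated array, with the flag C on that spot.

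**Figure D2:**
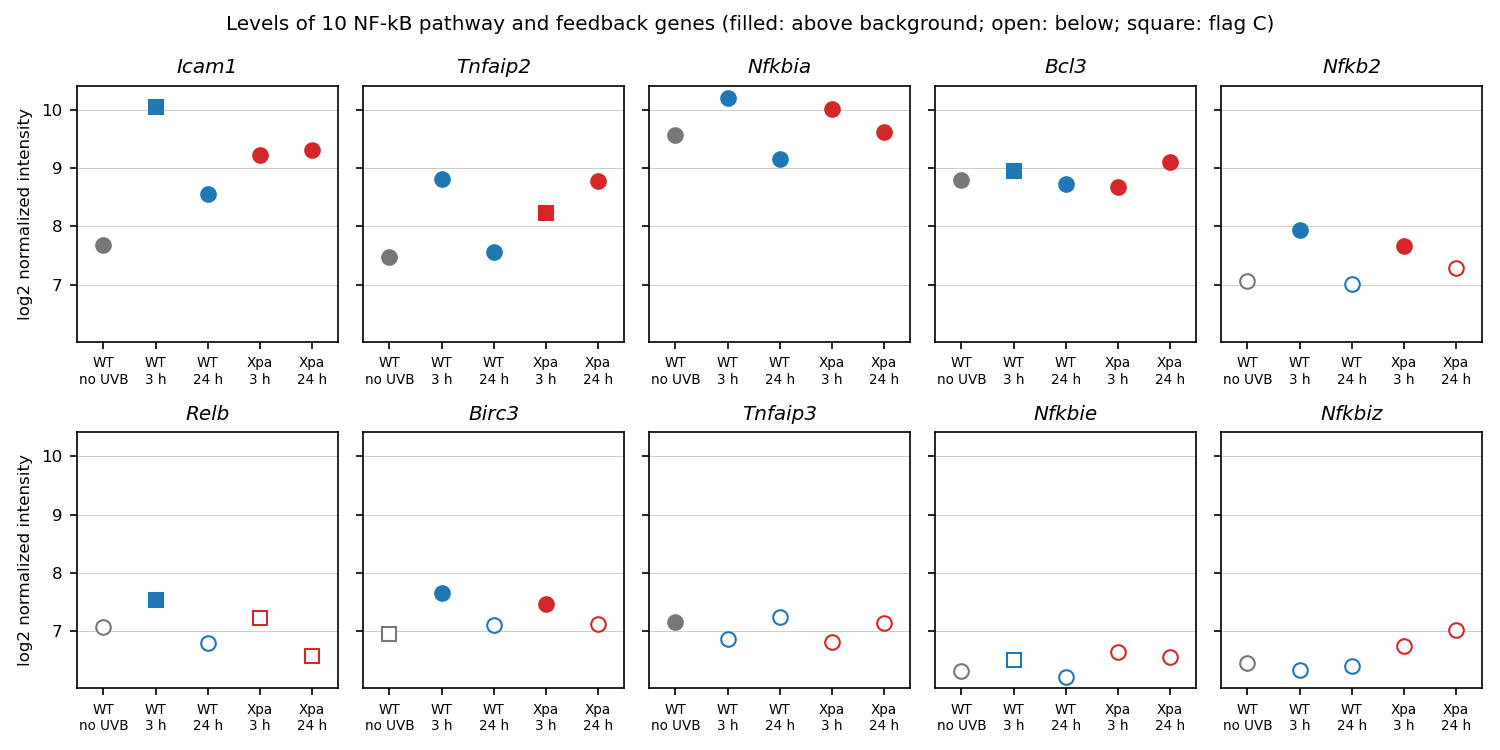
Log2 normalized intensity of each of the 10 genes (brightest probe) on the 5 arrays, 1 point per array: grey for WT without UVB, blue for WT and red for the Xpa mutant after UVB. Filled points are above background, open points below, and squares have the flag C. Icam1 spans 2.37 and Tnfaip2 1.35 on the log2 scale, while Nfkbie and Nfkbiz are open on every array.

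The comparison of WT skin at 3 h with WT skin without UVB asks which of these genes differ early after UVB. Icam1 and Tnfaip2 were at least 2-fold higher, 2 of 8 genes compared, and 0 were lower, where 2.27% of 7148 genes compared were higher and 1.26% lower. The 4 genes above background on both arrays (Icam1, Tnfaip2, Nfkbia and Bcl3) had a median log2 difference of 0.99, and all genes above background on both had one of -0.02. Nfkb2, Relb and Birc3 entered only through the array at 3 h, and Tnfaip3 only through the unirradiated one, so the direction of these 4 was largely set by the filter. The authors' deposited table had 4 genes at least 2-fold higher, and without spots that had the flag C, 4 of the 10 genes could be compared and 1, Tnfaip2, was.

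At 24 h in WT, 5 of the genes could be compared with WT without UVB and 0 were at least 2-fold higher or lower, where 2.45% of 7268 genes were higher and 2.22% lower. Their median log2 difference was 0.09. Icam1 had the highest difference, 0.88, and Nfkbia the lowest, -0.41. With an offset of 16, and in the authors' deposited table, 1 gene was at least 2-fold higher, and the highest value of Icam1 over all settings was 1.09.

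From 3 h to 24 h in WT, 3 of 7 genes compared were at least 2-fold lower (Icam1, Tnfaip2 and Nfkbia) and 0 higher, beside 2.22% lower and 2.09% higher among 7120 genes. The 4 genes above background on both arrays had a median of -1.15. Nfkb2, Relb and Birc3 entered only through the array at 3 h, so their lower values at 24 h were largely set by the filter. The authors' deposited table had 5 genes lower. The early WT array enters both this comparison and the first one, with opposite signs, so a high reading there alone would give both differences. It also enters the genotype difference at 3 h and the mutant change less the WT change, given below. A high reading there would lower the former and raise the latter. In the mutant, 0 of 6 genes compared passed 2-fold from 3 h to 24 h in either direction, with 2.44% of 7090 genes higher and 3.77% lower. The log2 differences were 0.55 for Tnfaip2, 0.42 for Bcl3, 0.10 for Icam1, -0.32 for Birc3, -0.37 for Nfkb2 and -0.38 for Nfkbia.

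Set against WT at the same time, Icam1 and Tnfaip2 had lower levels in the mutant at 3 h and higher levels at 24 h. At 3 h none of the 7 genes compared passed 2-fold, 0 higher and 0 lower, beside 1.12% and 0.991% of all 6863 genes. The 6 above background on both arrays had a median log2 difference of -0.27, beside 0.02 over all genes measured that way, and Relb entered only through the WT array. Icam1 was 1.77-fold lower, with 129 genes lower still, and Tnfaip2 had a log2 difference of -0.58, with 350 genes lower still. The other 5 had log2 differences from -0.32 for Relb to -0.20 for Nfkbia. These lie near the robust SD of all differences (from the median absolute deviation), 0.28.

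At 24 h 4 genes could be compared, all above background on both arrays, and 1, Tnfaip2, was at least 2-fold higher, beside 1.6% of 7104 genes higher and 2.66% lower. Tnfaip2 was 2.33-fold higher, and 59 of the 7104 genes had a larger difference. Icam1 was 1.70-fold, Nfkbia 1.38-fold and Bcl3 1.29-fold higher, and the log2 differences of Nfkbia (0.46) and Bcl3 (0.37) were again near the robust SD, 0.34. The arrays of the 2 times are separate, so these differences share no array with those at 3 h. The 4 genes above background on the 4 irradiated arrays (Icam1, Tnfaip2, Nfkbia and Bcl3) were below WT at 3 h and above it at 24 h, an order that 27.7% of 4782 genes measured that way had. It was also that of 7 of the 10 other subunits and regulators and of 6 of the 12 other targets above background on these arrays. Of the kinases and adaptors 4 of 7 had it, and of the ligands and receptors 2 of 4. Of the 7 other targets above background on all 5 arrays 1 had it, beside 27.5% of 4644 genes. The other 6 of the NF-kB genes were below background on at least 2 of the 4 irradiated arrays. The difference between the times in the mutant, less that in WT, was on the log2 scale 1.80 for Tnfaip2, 1.59 for Icam1, 0.66 for Nfkbia and 0.64 for Bcl3. Of these 4, 2 passed 1, beside 1.78% of 4782 genes at least that much higher and 2.49% lower.

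**Figure D3:**
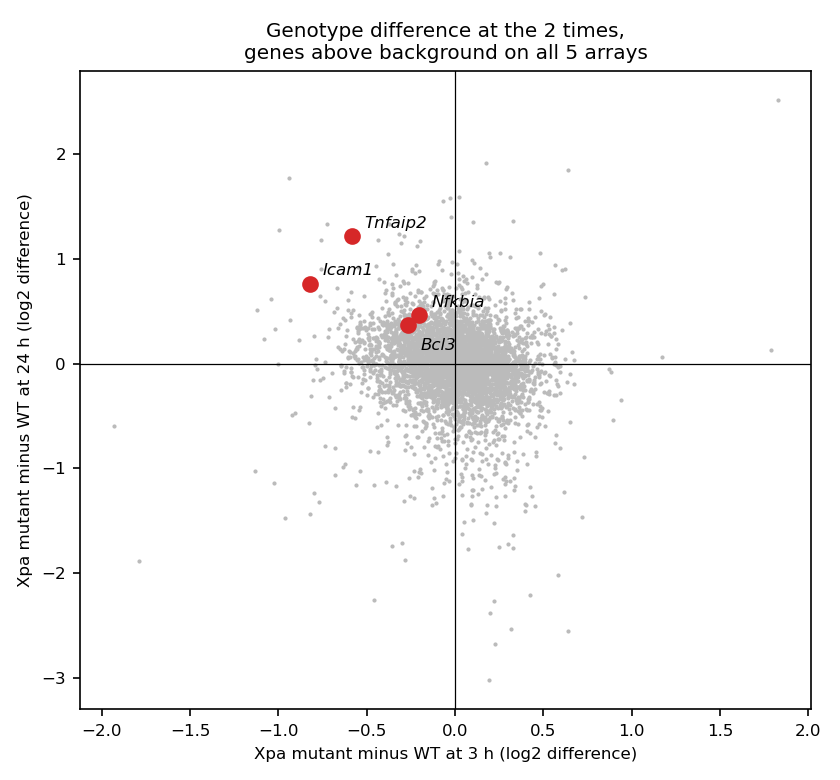
Mutant minus WT log2 difference at 3 h (horizontal) and at 24 h (vertical) for 4644 genes above background on all 5 arrays (grey), with the 4 of the NF-kB genes among them in red. All 4 lie left of 0 at 3 h and above 0 at 24 h, with Icam1 at -0.82 and 0.76 and Tnfaip2 at -0.58 and 1.22.

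Against WT skin without UVB, the only unirradiated array, mutant skin had 1 of 7 genes compared at least 2-fold higher at 3 h (Icam1, 2.92-fold) and 2 of 5 at 24 h (Icam1, 3.13-fold, and Tnfaip2, 2.48-fold). None was lower. The background was 1.76% higher and 1.32% lower of 7110 genes at 3 h, and 3.28% higher and 3.88% lower of 7296 at 24 h. These differences join genotype and UVB, and all comparisons with unirradiated skin share that array.

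Cell markers were read beside Icam1, since endothelium and leukocytes can also carry it, and fewer cells of a type cannot be told apart from less RNA per cell in whole skin. Of 9 endothelial markers 6 were above background on some array and 1, Esam, on all 5, with log2 levels of 7.70 without UVB, 7.80 and 7.76 in WT at 3 h and 24 h, and 7.87 and 8.15 in the mutant. The endothelial markers Cdh5, Tek and Emcn were below background on every array. The 4 macrophage markers above background on all 5 arrays, of 6 on the array, had a mean log2 level of 8.01 without UVB, 8.56 and 8.70 at 3 h in WT and mutant, and 9.23 and 9.21 at 24 h, so their order differed from that of Icam1. The macrophage marker Mrc1 was above background only at 24 h, at 7.68 in WT and 8.08 in the mutant. It was thus 1.32-fold higher in the mutant, the direction of Icam1 at that time. Adgre1, a defining macrophage marker, was below background on every array. Of 8 neutrophil markers 3 were above background on some array (S100a8, S100a9 and Retnlg), and Csf3r, Cxcr2, Mpo, Elane and Ngp were on none. All 3 were higher in the mutant than in WT at 24 h, where Icam1 and Tnfaip2 were higher too. S100a8, which keratinocytes also make, was 2.76-fold higher, S100a9 2.18-fold and Retnlg at least 2.16-fold. Of all genes 1.6% were at least 2-fold higher. Retnlg entered only through the mutant array, so its direction was largely set by the filter. At 3 h S100a8 was 1.64-fold lower in the mutant, an order shared with Icam1.

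Other marker lists also differed between the arrays. In the mutant against WT at 24 h the 7 fibroblast markers had a median log2 difference of 0.70, with Col1a2 2.93-fold and Col1a1 2.10-fold higher, and at 3 h their median was -0.07. The 5 endothelial markers compared at 24 h had a median of 0.39, with Pecam1 at least 1.47-fold and Tie1 at least 1.26-fold higher. Of these 5 only Esam, at 0.39, was above background on both arrays. Pecam1, Tie1 and Vwf entered only through the mutant array, so their direction was largely set by the filter. Kdr, at 0.08, entered only through the WT array. Of the hair keratins, 4 of 5 compared were at least 2-fold higher in WT at 3 h than without UVB (median 1.56), beside 2.27% of all genes. From 3 h to 24 h in WT, 4 of 5 were lower (median -1.20), beside 2.22%. Those 4 (Krt25, Krt71, Krt33a and Krt86) were below background without UVB, so their direction at 3 h was largely set by the filter. Their bounds at 3 h ran from at least 1.49-fold for Krt33a to at least 6.4-fold for Krt25. In WT at 24 h only Krt25 of them was above background. Against WT the mutant had 4 of 6 hair keratins higher at 3 h (median 1.41) and 3 of 4 at 24 h (median 1.29), where Icam1 was lower and then higher. Over all genes 1.12% were at least 2-fold higher at 3 h and 1.6% at 24 h. At 24 h Krt71 and Krt86 entered only through the mutant array, with bounds of at least 1.88-fold and 1.56-fold. The part of these cells in the Icam1 and Tnfaip2 differences was not tested.

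Among other members of the pathway, few subunits, regulators or kinases passed 2-fold. The list of other subunits, inhibitors and feedback regulators had 12 genes compared at 3 h in WT, with a median log2 difference of 0.33. Of these 0 were higher or lower by 2-fold, beside 2.27% higher and 1.26% lower of all genes. Rela, the main activating subunit, was 1.72-fold above unirradiated WT at 3 h and 1.39-fold at 24 h, while Nfkb1, the precursor of p50, differed by 1.01-fold and 1.16-fold. Rel was below background on every array. Mutant minus WT log2 differences were -0.57 at 3 h and 0.12 at 24 h for Nfkb1, and -0.33 and -0.21 for Rela. This list had 0 genes past 2-fold in either genotype comparison, with medians of -0.20 at 3 h and 0.02 at 24 h. Against unirradiated WT its only gene past 2-fold was Pdlim2, 2.01-fold lower in the mutant at 24 h. Pdlim2 was 1 of 13 compared there, beside 3.88% of all genes lower.

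Of 13 kinases and adaptors compared at 3 h in WT, 1 was at least 2-fold higher by the measured log2 difference, Irak1, a kinase of interleukin 1 and Toll-like receptor signalling, with a bound of at least 1.74-fold. The median was 0.07, and 2.27% of all genes were at least 2-fold higher. At 24 h in WT 0 of 11 passed, beside 2.45% higher and 2.22% lower of all genes, and the median was -0.25. Against WT the mutant had 1 of 11 lower at 3 h, Rnf31, a subunit of the linear ubiquitin ligase, beside 0.991% of all genes. Rnf31 was at least 1.22-fold lower with the mutant spot below background. At 24 h 0 of 11 passed 2-fold, beside 1.6% higher and 2.66% lower of all genes.

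Most ligands and receptors were too dim to read, 24 of 35 on the array being below background throughout, Tnf among them. Il1a had signal above background without UVB only. Tnfrsf12a, the receptor of the cytokine TWEAK, was 3.08-fold and 2.54-fold above unirradiated WT in WT at 3 h and 24 h. It was the only 1 of 9 and of 7 genes compared past 2-fold at those times, beside 2.27% and 2.45% of all genes higher. Its levels in the mutant were within 1.06-fold and 1.02-fold of WT. In the mutant at 24 h 2 of 8 were higher than in WT by a measured log2 difference past 1. They were Il1b, the interleukin 1 beta gene, with a bound of at least 1.77-fold, and its receptor gene Il1r1, with one of at least 2.37-fold. Both entered only through the mutant array, and 1.6% of all genes were at least 2-fold higher. At 3 h in WT Il1b exceeded unirradiated WT at least 1.34-fold, and in the mutant it was at least 1.25-fold lower than in WT at that time. Against unirradiated WT the mutant had 1 of 9 higher at 3 h (Tnfrsf12a, 2.91-fold) and 1 lower (Il1a, at least 1.03-fold). Of all genes 1.76% were higher and 1.32% lower. At 24 h 3 of 10 were higher (Il1b, Tnfrsf12a and Il1r1), beside 3.28% of all genes. Another 2 were lower, Il18 by 2.65-fold and Tnfsf12 by at least 1.17-fold, beside 3.88%. There too Il1b and Il1r1 entered only through the mutant array, and Il1a at 3 h and Tnfsf12 at 24 h only through the unirradiated one. The direction of these genes was largely set by the filter.

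Other textbook NF-kB targets had the most genes past 2-fold at 3 h. In WT 9 of 19 compared were higher and 0 lower, beside 2.27% higher and 1.26% lower of all genes. Most of the 9 were below background without UVB and entered only through the array at 3 h. Their direction was largely set by the filter. The median log2 difference of all 19 was 0.92, and 0.45 over the 8 that were above background on both arrays. The chemokine gene Ccl20 was at least 4.58-fold higher and the chemokine gene Ccl2 at least 4.30-fold, the stress response gene Ier3 4.78-fold and Il6 at least 2.59-fold. At 24 h 4 of 15 were higher and 0 lower (median 0.31), beside 2.45% higher and 2.22% lower of all genes. These 4 were Saa3, an acute phase gene, at least 3.37-fold, the neutrophil attractant Cxcl1 at least 2.52-fold, Ier3 2.26-fold and Ccl20 at least 1.43-fold. All but Ier3 entered only through the array at 24 h. The endothelial adhesion gene Sele was at least 1.39-fold higher in WT at 3 h, while Vcam1 and Selp, which like Icam1 serve leukocyte adhesion, were below background on every array.

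The mutant had 0 of 18 such targets past 2-fold against WT at 3 h (median -0.36), beside 1.12% higher and 0.991% lower of all genes. The median was -0.33 over the 12 targets above background on the 4 irradiated arrays, and 0.05 over the 7 above it on all 5. At 24 h 3 of 16 were higher (median 0.18), beside 1.6% of all genes. Those 3 were Saa3, 5.16-fold, Cxcl2 at least 2.15-fold, and Ccl2 2.03-fold. Cxcl2 entered only through the mutant array. Of the 12 targets above background on the 4 irradiated arrays, 6 lay below WT at 3 h and above it at 24 h. They were Ccl2 (log2 differences of -0.91 and 1.02), Cxcl1 (-0.55 and 0.93), Ier3 (-0.39 and 0.71), Saa3 (-0.16 and 2.37), Ccl20 (-0.40 and 0.07) and Irf1 (-0.62 and 0.02), the last 2 of them with values near 0 at 24 h. Of all genes above background on the 4 irradiated arrays 27.7% had this order. Of the 7 targets above background on all 5 arrays 1 had it, Ier3. Against unirradiated WT 6 of 17 targets were higher in the mutant at 3 h, beside 1.76% of all genes. Ccl20 (at least 3.46-fold), Ier3 (3.65-fold), Cxcl1 (at least 2.24-fold) and Ccl2 (at least 2.28-fold) led. At 24 h 7 of 16 were higher, beside 3.28% of all genes, led by Saa3 (at least 17.4-fold) and Cxcl1 (at least 4.79-fold). At both times, of the targets counted as higher, all but Ier3 entered only through the mutant array. Their direction was largely set by the filter.

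**Figure D4:**
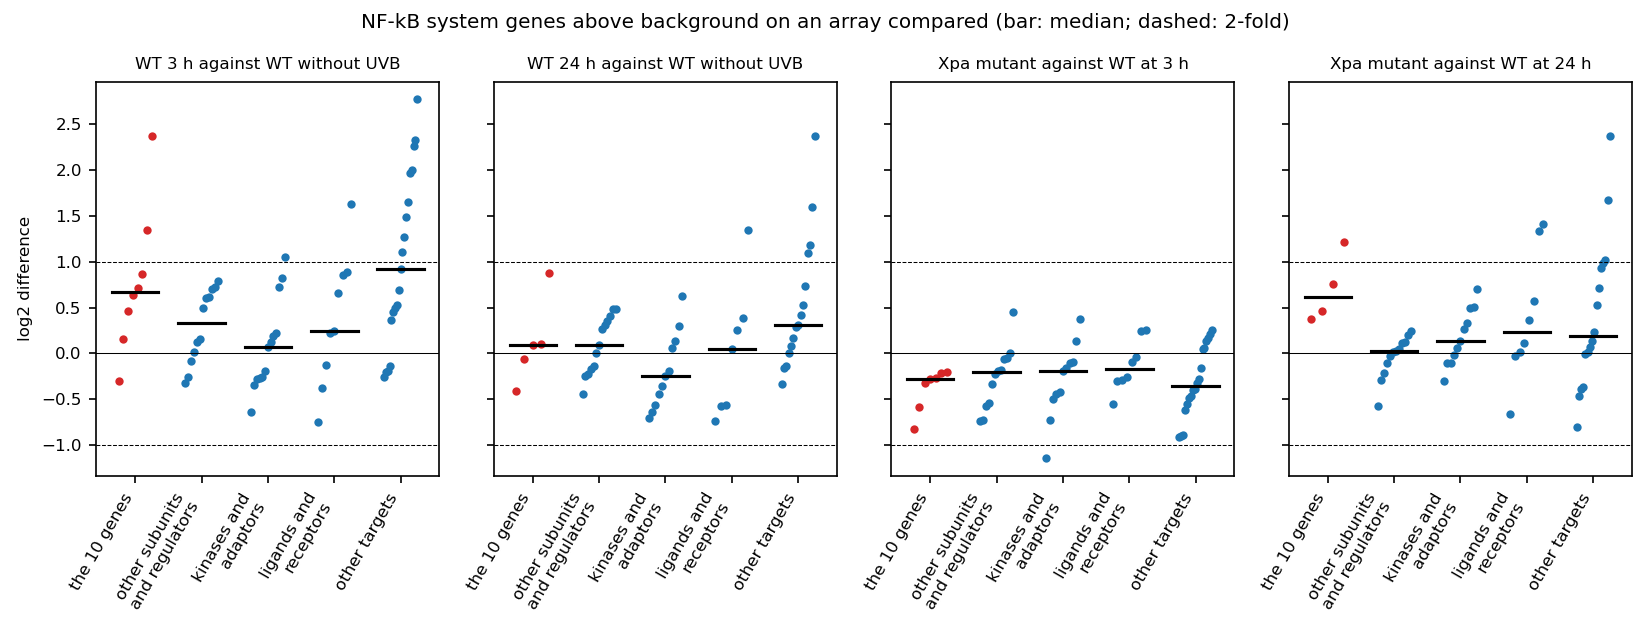
Log2 differences of the 10 genes (red) and of 4 lists of other NF-kB system genes (blue) in 4 comparisons, 1 point per gene above background on an array compared, with bars at the medians and dashed lines at 2-fold. In WT at 3 h the medians are 0.67 for the red genes and 0.92 for the other targets, and in the mutant against WT they are -0.28 and -0.36 at 3 h. These medians include genes above background on only 1 of the arrays compared. Over genes above background on all 5 arrays, those in WT at 3 h are 0.99 for the red genes and 0.36 for the other targets. In the mutant against WT at 3 h they are then -0.43 and 0.05.

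Likeness of pattern was measured as the root mean square distance over the 4 log2 differences from unirradiated WT, among 4640 other genes above background on all 5 arrays. The nearest to Icam1 were Ier3, at a distance of 0.25, Tti2 at 0.41 and Dusp6, which encodes a phosphatase of ERK kinases, at 0.44. Ier3 was 2.26 and 1.18 above unirradiated WT in WT at 3 h and 24 h, and 1.87 and 1.88 in the mutant, on the log2 scale. The nearest to Nfkbia were Txlnb at 0.10, Klhl41, a muscle gene, at 0.11, and Alas1, which encodes the first enzyme of haem synthesis, at 0.14. Beside this, 7 skeletal muscle markers, all above background on every array, had a mean log2 level of 12.43 without UVB, 12.17 and 11.43 in WT at 3 h and 24 h, and 12.56 and 11.49 in the mutant. Their part in the Nfkbia levels was not tested.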

How the data were processed

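Per the file headers, the scanner tables were quantified with CodeLink Expression Analysis 5.0.0.31312 and give each spot's mean intensity, local background median and quality flag. The authors' deposited normalized table holds, as read from its values, background-subtracted intensity on a linear scale, quantile normalized, with no centring per gene (each column has a median of 46.26). The series matrix equals it in 181135 of 181135 cells. Here normexp correction (offset 50) was applied to the scanner values, which were quantile normalized in limma 3.58.1 (R 4.3.3) over 34743 gene probes and taken to log2, after leaving out 126 masked probes and 98 with an irregular or P flag. The offset understates folds of dim genes. The steps were tested on simulated data, and later steps used Python 3.11.15. Of several probes of a gene the brightest was used. "At least N-fold" sets the brighter array against the higher of the dim value and the lowest value above background on that array. No fold is given where both arrays, or the brighter one, were below background. Named genes follow a fixed rule (the 10 genes, at most the 4 largest differences past 2-fold per list, some subunits and ligands at any value, and the 3 genes most like Icam1 and Nfkbia); the targets Sele, Vcam1, Selp and Irf1 and the cell markers were added after their values were seen. Probes were named through the platform annotation or, for 533, a RefSeq accession, and 12061 stayed unnamed. The genes and lists were chosen with earlier results of these data known. The number of arrays limits the precision. Alternatives changed the background correction, offset, normalization, table, dim-probe filter and probe choice.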

Additional observations from a re-analysis of the deposited data

Results flagged for a closer look

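Icam1, Tnfaip2 and Bcl3 had opposite directions from 3 h to 24 h in the 2 genotypes, lower in WT and higher in the mutant. For Bcl3 the log2 changes were small, -0.21 in WT and 0.42 in the mutant. The robust SDs over all genes were 0.36 and 0.41. The change in the mutant minus that in WT was 1.59 for Icam1, 1.80 for Tnfaip2 and 0.64 for Bcl3 on the log2 scale. Of 4782 genes above background on the 4 irradiated arrays, 19, 8 and 353 had higher values than these, and 1.78% were at least 2-fold higher. With 1 array per group the difference was not tested, and the WT array at 3 h that enters it also enters the WT differences given above. The Icam1 value in the mutant differed by only 0.10 between the times, the spots of Icam1 and Bcl3 on the WT array at 3 h and of Tnfaip2 on the mutant array at 3 h had the flag C, and the part of these spots was not tested.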

How the results depend on the processing

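Of 96 counts of the 10 genes past 2-fold under 8 alternatives, 91 stayed within 1.5 times the reported count. Most of the reported counts were 0, so the 91 mainly describes counts of 0 and says little about those above 0. In WT at 3 h against WT without UVB the count of higher genes was 4 in the authors' deposited table and 1 without spots with the flag C, an alternative chosen after seeing the data, which leaves fewer genes to compare. In WT at 24 h against WT without UVB 1 gene was higher with an offset of 16 and in the authors' deposited table, and from 3 h to 24 h in WT 5 were lower in that table. The cause was not tested. Of 388 log2 differences of single genes under the alternatives, 380 moved by less than the robust SD over all genes, 8 by more, and 2 changed sign, neither of them past 2-fold (Birc3, given above, and Tnfaip3 near 0). Icam1 in WT at 3 h ranged from 2.19 to 2.71, and its change in the mutant minus that in WT from 1.47 to 1.72. That of Tnfaip2 ranged from 1.70 to 2.16. For the 4 lists of other genes 434 of 512 counts stayed within 1.5 times, and 15 of 256 medians changed sign. No paired analysis was possible because each group holds 1 array, and no array could be left out. Signal over background limits Nfkbie, Nfkbiz, Tnfaip3, Relb, Nfkb2 and Birc3.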
